A study of Mus musculus with 12 samples.

Results

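Collagen genes were taken as every gene whose symbol is Col, a number, the letter a and a number, and 44 of the 55357 genes in the count files met that rule. They comprised 11 fibrillar, 8 basement membrane, 4 transmembrane, 9 fibril-associated and 12 microfibril, network and anchoring collagen chains. RNA came from mouse embryonic cortex (E17.5), dissected with the hippocampal formation, freed of the ventral forebrain and cut into rostral and caudal pieces. Knockout embryos (NcreEGFRFF) had both copies of Egfr, which encodes the receptor for epidermal growth factor, flanked by loxP sites (2 floxed alleles) and carried Cre under the Nestin promoter, active in progenitors of the neural lineage. Control embryos (EGFRF+) carried 1 floxed allele of Egfr beside an intact one. The titles name Cre in knockouts only and the sources used here do not say whether controls carried it, so that loss of Egfr and presence of Cre cannot be told apart. The 12 libraries fall into 4 groups of 3, titled by embryo as knockout 5, 2 and 7 and control 1, 3 and 9, each with a rostral and a caudal library. The titles also hold a number before that of the embryo. Knockout 5 shares it with control 1, and knockouts 2 and 7 share another with controls 3 and 9. The titles do not say what it stands for. The labels give no strain, sex or pooling of embryos.

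Collagens are secreted or membrane-bound proteins built of 3 chains wound into a triple helix. Fibrillar chains form the rope-like fibrils of connective tissue, and in the brain they are known mainly from the meninges and the walls of large vessels. Type IV chains form the sheet-like network of basement membranes, which in the cortex lie under the pia and around every blood vessel. Col15a1 and Col18a1 encode proteoglycan-like collagens at the border of basement membranes, fibril-associated collagens sit on the surface of fibrils, and transmembrane collagens are anchored in the cell membrane.

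The libraries held 25223733 to 30383672 counts each, and collagens took from 0.0357 to 0.0583% of them. Egfr was at 4.87, 3.601 and 6.93 CPM (counts scaled to a library total of 1e+06) in knockout and 19.2, 26.0 and 31.1 CPM in control rostral libraries, and at 5.69, 7.33 and 6.21 against 29.9, 36.8 and 41.6 CPM in caudal ones. The groups did not overlap in either part (exact two-sided permutation p = 0.1, the smallest that 3 against 3 libraries can give). Other labels were not borne out by the data. The libraries titled control rostral 1 and 3 each held both Xist, the X-inactivation RNA of female cells (229.7 and 278.3 CPM), and the Y-linked Ddx3y (29.7 and 28.0 CPM). The rostral and the caudal library titled as 1 embryo differed in which of these transcripts they held for 5 of the 6 embryos, all but knockout 7. Nr2f1, which encodes a regulator of cortical area identity with its textbook peak in caudal cortex, stood at 340.2 and 348.4 CPM in the libraries titled knockout rostral 2 and control rostral 3, and at 71.3 and 58.6 CPM in their titled caudal partners. Libraries titled as 1 embryo deviated from their group means in opposite directions, so the sums below follow the titles with no support from the values, and n counts libraries or titled sums. Nothing in the labels beyond the titles says that the libraries are separate embryos. The p-values therefore measure the spread between these libraries or, in the summed comparison, between the titled sums. Markers of cortical neurons (10 of 10 at a mean of at least 1 CPM, summing to 1738 to 2867 CPM) and of radial glia (10 of 10, 2000 to 2561 CPM) were present in every library. Summed markers of Cajal-Retzius cells ran from 75.2 to 823.8 CPM, of GABAergic interneurons from 204.6 to 911.4 CPM, of ventral forebrain from 30.1 to 308.6 CPM and of choroid plexus from 1.28 to 59.1 CPM.

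The most abundant collagen RNAs were those of Col4a1 and Col4a2, whose chains assemble into the standard basement membrane protein (2 chains of the first and 1 of the second). Both genes start from the same stretch of DNA and are read in opposite directions, so their promoter windows are shown first. The windows, from RefSeq on GRCm38.p6, span 250 bases before to 50 bases after each start, chr8:11312777-11313076 on the minus strand for Col4a1 and chr8:11312555-11312854 on the plus strand for Col4a2. Each is printed 5′ to 3′ on its own strand, with the 78 bases that both windows contain in capitals:

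Col4a1: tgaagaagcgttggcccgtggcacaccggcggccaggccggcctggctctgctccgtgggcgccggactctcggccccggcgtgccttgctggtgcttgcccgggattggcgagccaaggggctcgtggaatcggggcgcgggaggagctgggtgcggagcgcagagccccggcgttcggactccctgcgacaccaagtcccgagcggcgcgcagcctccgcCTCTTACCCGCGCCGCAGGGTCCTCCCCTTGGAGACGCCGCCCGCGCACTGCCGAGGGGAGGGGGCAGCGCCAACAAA

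Col4a2: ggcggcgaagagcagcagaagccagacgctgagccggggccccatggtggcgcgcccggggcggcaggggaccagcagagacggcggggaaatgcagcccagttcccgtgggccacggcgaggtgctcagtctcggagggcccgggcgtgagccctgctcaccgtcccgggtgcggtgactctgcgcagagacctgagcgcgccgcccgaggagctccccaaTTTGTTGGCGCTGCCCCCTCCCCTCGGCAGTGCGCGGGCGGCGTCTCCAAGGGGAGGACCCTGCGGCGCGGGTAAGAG

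The shared stretch, chr8:11312777-11312854, has 73.1% G and C. The annotated first exons overlap by 22 bases there, and also by 22 bases in the annotation of the deposited files on GRCm39. It holds 1 match to GGGCGG (the letters of a GC box, searched on both strands) and none to the other strings searched. The same letters were found in 35.7% of all 32851 promoter windows of that length, and in 23 of the 38 windows of collagens. The 38 windows belonged to 35 of the 44 members. CCAAT, also searched on both strands, was in 37.4% of all windows and in 13 of the 38, and TATAAA in 13.6% of all windows and in 5 of the 38. Matches to different strings can share bases at their ends, and a match describes the sequence only. The type IV genes come as 3 such opposed pairs in the files' annotation on GRCm39, with starts 71 bases apart for Col4a4 and Col4a3 and 1308 bases apart for Col4a6 and Col4a5.

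**Figure D1:**
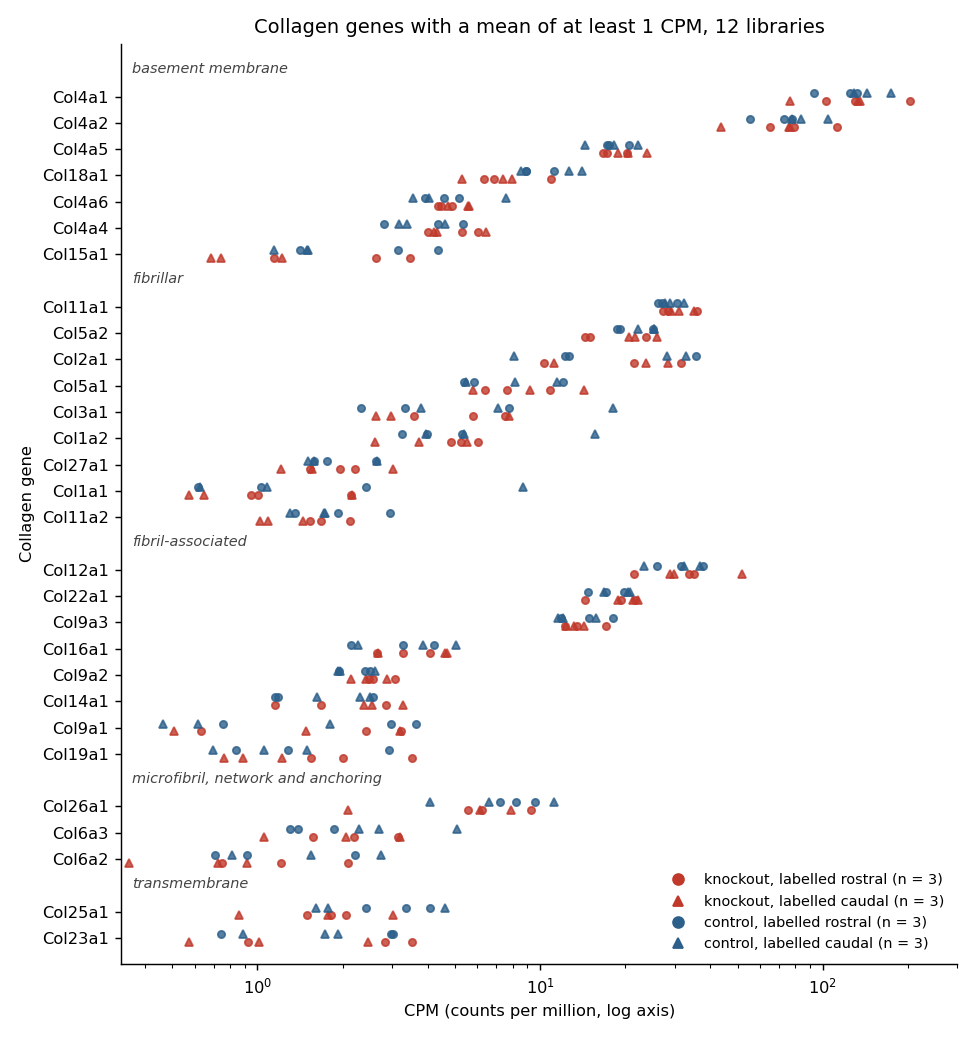
CPM of each collagen gene with a mean of at least 1 CPM in the 12 libraries, on a log axis, grouped by class. Each point is 1 library, with colour for genotype and shape for titled part. Col4a1 (mean 131.9 CPM) and Col4a2 (mean 77.1 CPM) have the highest means.

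Basement membrane chains supplied most of the collagen RNA. Per kilobase of exon, basement membrane chains made up 61.2% of collagen RNA, fibril-associated chains 17.7%, fibrillar chains 17.04%, microfibril, network and anchoring chains 3.03% and transmembrane chains 0.999%. Col4a1 alone accounted for 31.1% and Col4a2 for 20.5%. The plot of levels by gene shows the range within each class. Of the 44 genes, 29 had a mean of at least 1 CPM and 15 a lower one, among them 9 of the 12 microfibril, network and anchoring chains. Col10a1, the collagen of growth plate cartilage, was at 0 in 9 of 12 libraries and reached 0.0384 CPM, and a count of 0 in a library allows up to 0.0987 to 0.119 CPM (3 counts of the total, counting error only).

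Among basement membrane chains, Col4a1 (chr8:11248423-11362826, minus strand, GRCm39) had 130.7, 103.1 and 203.6 CPM in rostral and 135.9, 133.8 and 76.6 CPM in caudal knockout libraries, and 124.8, 132.6 and 93.5 CPM in rostral and 143.7, 129.4 and 175.1 CPM in caudal control libraries, in the order knockouts 5, 2 and 7 and controls 1, 3 and 9, which is kept below. The highest and the lowest library were both titled knockout 7, its rostral and its caudal one, and the genotypes overlapped in both parts. Col4a2 (chr8:11362805-11499287, plus strand) had 78.9, 65.01 and 112.6 CPM in rostral and 75.8, 76.9 and 43.7 CPM in caudal knockout libraries, and 73.0, 78.2 and 55.3 CPM in rostral and 83.6, 77.7 and 104.5 CPM in caudal control libraries. It followed Col4a1 library by library, again with the highest and lowest values in the libraries titled knockout 7. Per kilobase of exon, the ratio of Col4a1 to Col4a2 stayed between 1.41 and 1.60 in the 12 libraries while Col4a1 itself varied 2.66-fold. The ratio was 1.53 ± 0.0757 (SD, n = 6 libraries) in knockouts and 1.501 ± 0.0180 (SD, n = 6) in controls.

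Vessel markers differed between the same libraries. The 14 endothelial markers, all at a mean of at least 1 CPM, summed to 187.8 to 271.9 CPM in knockout rostral, 136.3 to 204.9 CPM in knockout caudal, 138.5 to 237.4 CPM in control rostral and 174.5 to 269.7 CPM in control caudal libraries. The sum was highest in knockout rostral 7 and lowest in knockout caudal 7. The 12 mural cell markers, 10 of them at a mean of at least 1 CPM, summed to 94.5 to 256.9 CPM in knockout rostral, 95.4 to 162.4 CPM in knockout caudal, 123.1 to 142.1 CPM in control rostral and 136.9 to 169.9 CPM in control caudal libraries, with the highest sum in knockout rostral 7. That library also had the highest share of mitochondrial counts, 7.25%, against 1.96 to 4.77% in the other 11. The part of these markers and of that share in the levels of Col4a1 and Col4a2 was not tested, and in bulk tissue fewer cells of a type and less RNA per cell cannot be told apart.

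**Figure D2:**
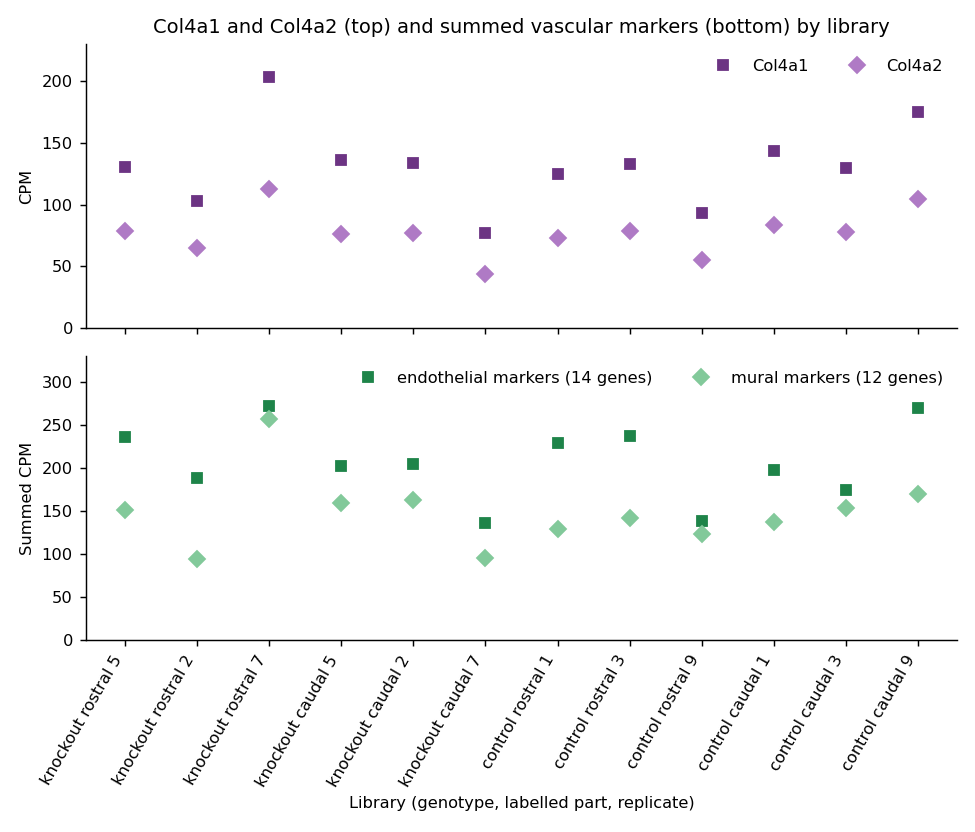
CPM of Col4a1 and Col4a2 (top) and summed CPM of 14 endothelial and 12 mural markers (bottom) in each of the 12 libraries, as titled. Each point is 1 library. Col4a1 and Col4a2 are highest in knockout rostral 7 and lowest in knockout caudal 7, and in caudal libraries the genotypes do not overlap for Col4a2.

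The other type IV chains were lower. Col4a5 (chrX:140258381-140472230, plus strand), which pairs with Col4a6 or with Col4a3 and Col4a4 in specialised basement membranes, had 17.2, 16.7 and 20.3 CPM in rostral and 24.0, 20.5 and 18.9 CPM in caudal knockout libraries, and 17.2, 20.6 and 17.51 CPM in rostral and 18.3, 14.5 and 22.3 CPM in caudal control libraries. Its level per kilobase was 3.49 to 5.41 times that of its neighbour Col4a6, which had a mean of 4.87 CPM. Col4a4 (chr1:82426144-82564570, minus strand) had 6.02, 4.003 and 5.28 CPM in rostral and 4.21, 6.41 and 4.34 CPM in caudal knockout libraries, and 4.35, 2.81 and 5.33 CPM in rostral and 3.16, 4.61 and 3.38 CPM in caudal control libraries, with overlapping genotypes in both parts, and its head-to-head partner Col4a3 had a mean of 0.346 CPM. Per kilobase, Col4a3 was at 0.0347 and Col4a4 at 0.423 CPM. Their chains are known to assemble with each other.

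Col18a1 (chr10:76888012-77002382, minus strand), whose C-terminal fragment is endostatin, had 6.34, 6.87 and 10.96 CPM in rostral and 7.95, 7.41 and 5.31 CPM in caudal knockout libraries, and 8.93, 11.2 and 8.91 CPM in rostral and 12.7, 8.59 and 14.1 CPM in caudal control libraries. All 3 caudal control libraries exceeded all 3 caudal knockout libraries, whereas in the rostral libraries knockout 7 exceeded controls 1 and 9. Col15a1 (chr4:47208161-47313167, plus strand), its closest relative, had 3.48, 2.62 and 1.14 CPM in rostral and 1.22, 0.687 and 0.742 CPM in caudal knockout libraries, and 4.35, 3.15 and 1.42 CPM in rostral and 1.504, 1.14 and 1.499 CPM in caudal control libraries. The 4 highest values came from rostral libraries, and rostral knockout 7 and control 9 lay among the caudal values. Col15a1 was among the members described in full after its values were seen.

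Fibrillar chains were led per kilobase by Col11a1, Col2a1 and Col5a2. Col11a1 (chr3:113824189-114014367, plus strand), a minor chain that sits within cartilage fibrils, varied least of these and had 28.3, 35.8 and 27.3 CPM in rostral and 31.1, 29.1 and 35.0 CPM in caudal knockout libraries, and 26.9, 30.6 and 26.2 CPM in rostral and 28.8, 27.7 and 32.4 CPM in caudal control libraries. Col5a2 (chr1:45413481-45542442, minus strand), a chain of the type V collagen that nucleates fibrils, had 14.5, 15.1 and 23.7 CPM in rostral and 26.0, 21.7 and 20.7 CPM in caudal knockout libraries, and 19.2, 18.8 and 25.1 CPM in rostral and 22.2, 25.3 and 25.3 CPM in caudal control libraries. Col2a1 (chr15:97873483-97902576, minus strand), the main cartilage collagen, had 10.3, 31.6 and 21.4 CPM in rostral and 23.8, 11.2 and 28.5 CPM in caudal knockout libraries, and 12.6, 35.7 and 12.3 CPM in rostral and 28.2, 8.08 and 32.9 CPM in caudal control libraries. Its libraries fell into low values of 8.08 to 12.6 CPM and higher values of 21.4 to 35.7 CPM, and both kinds occurred in every one of the 4 groups. Of the 10 cartilage and bone markers, 2 had a mean of at least 1 CPM, and their sum ran from 2.80 to 5.19 CPM in knockout rostral, 1.99 to 3.18 CPM in knockout caudal, 1.96 to 5.59 CPM in control rostral and 2.72 to 4.86 CPM in control caudal libraries. Bglap and Matn1 reached at most 0.0382 and 0.0165 CPM. Cnmd, which encodes a cartilage glycoprotein, was at 0 to 0.229 CPM in the 5 libraries with low Col2a1 and at 0.536 to 2.83 CPM in the other 7. Matn4, the other marker at a mean of at least 1 CPM, overlapped, at 0.559 to 1.72 CPM in the 5 and 0.329 to 1.78 CPM in the 7. Ibsp, also on that list, ran from 0.224 to 0.590 CPM in the 5 and from 0 to 0.396 CPM in the 7. The part of such cells in the level of Col2a1 was not tested.

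Col3a1 (chr1:45350698-45388866, plus strand), the fibrillar chain of soft tissue and vessel walls, had 3.57, 5.80 and 7.53 CPM in rostral and 7.78, 2.96 and 2.64 CPM in caudal knockout libraries, and 3.32, 7.75 and 2.33 CPM in rostral and 7.12, 3.78 and 18.1 CPM in caudal control libraries. Its level in control caudal 9 exceeded that of every other library. Col1a2 and Col1a1, the chains of type I collagen, and the microfibril chain Col6a3 were highest in the same library, at 15.6, 8.71 and 5.09 CPM against at most 6.02, 2.42 and 3.19 CPM in the other 11. These 3 genes were chosen after their values were seen. Type I collagen is built of 2 chains from Col1a1 and 1 from Col1a2. Per kilobase, Col1a1 RNA was below Col1a2 RNA in 11 of 12 libraries, with a median ratio of 0.432 and a ratio of 1.06 in control caudal 9. The ratio depends on the annotated exon lengths, 6563 bases for Col1a1 and 12426 bases for Col1a2. The other fibrillar chains were Col5a1 at a mean of 8.54 CPM, Col27a1 at 1.93 CPM, Col11a2 at 1.66 CPM, Col5a3 at 0.370 CPM and Col24a1 at 0.0840 CPM.

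**Figure D3:**
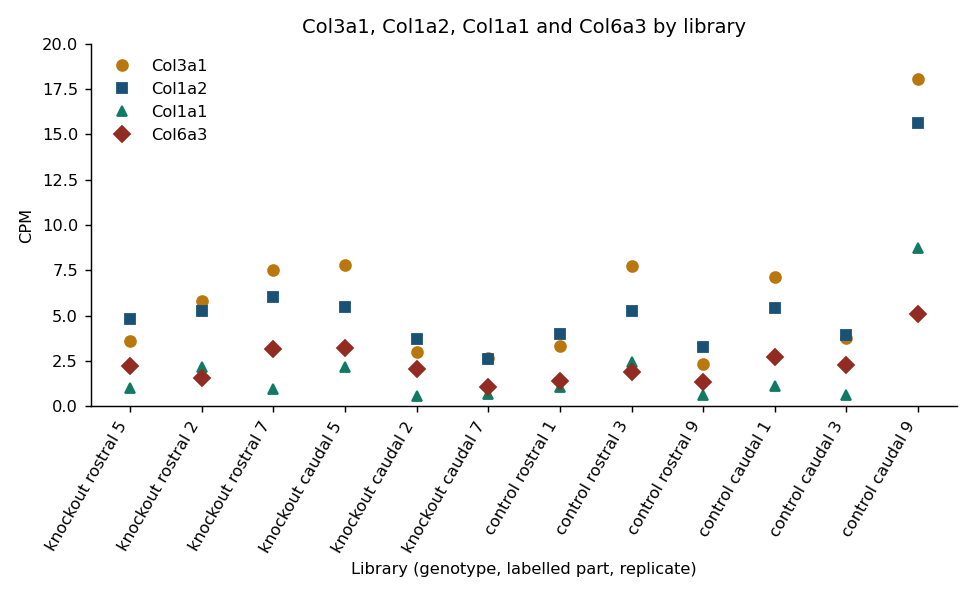
CPM of Col3a1, Col1a2, Col1a1 and Col6a3 in each of the 12 libraries, by genotype and part as titled; each point is 1 library. Control caudal 9 is the highest library for all 4 genes.

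The 15 markers of meningeal fibroblasts, 7 of them at a mean of at least 1 CPM, summed to 33.8 to 71.9 CPM in knockout rostral, 35.1 to 58.5 CPM in knockout caudal, 48.6 to 60.2 CPM in control rostral and 44.8 to 62.0 CPM in control caudal libraries. Control caudal 9 had 60.1 CPM, within that range. Lum, Slc6a13, Aldh1a2 and Slc22a6, which were near 0 in most libraries, had their highest values there, 0.577, 1.04, 0.346 and 0.404 CPM, and Dcn was at 3.15 CPM there against 3.49 CPM in control rostral 3. With Foxc1, at 3.77 CPM, these made 5 of the 15 markers that were highest in control caudal 9. The other 10 were highest in other libraries, such as Ogn, at 2.5 CPM there and up to 3.55 CPM elsewhere, and Cemip, at 5.73 CPM there and up to 25.6 CPM elsewhere. Mgp stayed at or below 0.143 CPM in every library. The part of these cells in the fibrillar levels was not tested.

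Transmembrane chains were scarce. Col23a1 (chr11:51180747-51474745, plus strand) had 2.84, 3.53 and 0.928 CPM in rostral and 2.47, 0.573 and 1.02 CPM in caudal knockout libraries, and 2.98, 3.01 and 0.745 CPM in rostral and 1.74, 0.885 and 1.92 CPM in caudal control libraries. Col25a1 (chr3:129925150-130393526, plus strand), a neuronal collagen known for its part in motor innervation and for binding amyloid beta, had 2.05, 1.82 and 1.499 CPM in rostral and 1.78, 3.02 and 0.859 CPM in caudal knockout libraries, and 3.36, 4.06 and 2.42 CPM in rostral and 1.77, 4.61 and 1.61 CPM in caudal control libraries. In rostral libraries the 3 knockouts lay below the 3 controls, and in caudal libraries the groups overlapped. Col17a1 (chr19:47634783-47680533, minus strand), a hemidesmosome component of skin, had at most 0.256 CPM, and Col13a1 at most 0.423 CPM with 0 in 4 libraries. Col17a1 had 0.256, 0.175 and 0.250 CPM in rostral and 0.230, 0.229 and 0.156 CPM in caudal knockout libraries, and 0.115, 0.159 and 0.112 CPM in rostral and 0.193, 0.0738 and 0.154 CPM in caudal control libraries.

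Fibril-associated chains were led per kilobase by Col9a3, Col12a1 and Col22a1. Col9a3 (chr2:180239583-180263982, plus strand), 1 of the 3 chains of type IX collagen, had 17.05, 13.5 and 12.2 CPM in rostral and 14.3, 12.3 and 13.1 CPM in caudal knockout libraries, and 18.1, 14.9 and 11.8 CPM in rostral and 12.01, 15.8 and 11.6 CPM in caudal control libraries. Its partner chains were lower: Col9a2 (chr4:120896582-120912519, plus strand) had 2.49, 3.08 and 2.57 CPM in rostral and 2.14, 2.86 and 2.42 CPM in caudal knockout libraries, and 2.40, 2.50 and 1.94 CPM in rostral and 1.93, 1.95 and 2.61 CPM in caudal control libraries. The third chain, Col9a1, ran from 0.461 to 3.65 CPM, so that per kilobase Col9a3 exceeded Col9a2 by 3.45 to 6.49 times and Col9a1 by 4.27 to 34.0 times. The 3 chains of type IX collagen were therefore not present in 1 fixed ratio of RNA. Col12a1 (chr9:79506273-79626113, minus strand), which bridges fibrils, had 33.8, 35.2 and 21.6 CPM in rostral and 28.7, 29.7 and 51.9 CPM in caudal knockout libraries, and 26.0, 37.7 and 31.5 CPM in rostral and 32.4, 23.4 and 36.9 CPM in caudal control libraries. Col22a1 (chr15:71667644-71906076, minus strand), known from tissue junctions such as that of muscle and tendon, had 19.4, 14.4 and 21.7 CPM in rostral and 18.8, 21.3 and 22.2 CPM in caudal knockout libraries, and 14.8, 17.1 and 19.9 CPM in rostral and 20.4, 16.8 and 20.7 CPM in caudal control libraries. Caudal knockout 7 was the highest library for both genes, and the genotypes overlapped in both parts. The remaining chains of this class, Col14a1, Col16a1, Col19a1 and Col20a1, had means of 0.375 to 3.57 CPM.

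Of the microfibril, network and anchoring chains, Col26a1, Col6a3 and Col6a2 reached a mean of 1 CPM. Col26a1 (chr5:136770613-136912063, minus strand) had 6.23, 5.56 and 9.30 CPM in rostral and 6.15, 7.88 and 2.09 CPM in caudal knockout libraries, and 8.24, 7.22 and 9.63 CPM in rostral and 4.07, 11.2 and 6.61 CPM in caudal control libraries, with overlapping genotypes in both parts. The beaded-filament chains of type VI collagen, Col6a1, Col6a2 and Col6a3, had means of 0.541, 1.25 and 2.32 CPM, and Col6a4, Col6a5 and Col6a6 were at or below 0.205 CPM on average. Col7a1, the anchoring fibril chain of skin, Col8a1, Col8a2, Col10a1 and Col28a1 had means of at most 0.915 CPM.

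For knockout against control, counts were first summed over the rostral and caudal library of each titled embryo. Col18a1 had the smallest p, with 7.18, 7.13 and 8.26 CPM in the knockout sums and 10.8, 9.86 and 11.4 CPM in the control sums, which did not overlap. The means were 7.52 ± 0.640 and 10.7 ± 0.795 CPM (SD, n = 3 sums each), a log2 fold change of -0.48 (SE 0.11, 95% interval -0.73 to -0.24). It missed the threshold, with an edgeR quasi-likelihood p of 0.00174 and a Benjamini-Hochberg adjusted p of 0.865 over 18935 genes. With no filter on low counts edgeR called it (adjusted p = 0.0259), and over the other alternatives its adjusted p ran from 0.0996 to 1.0. In the same model no collagen had an adjusted p under 0.05 (0 of 38 tested; 0.0317% of all genes tested were called). At an unadjusted p under 0.05 there were 4, against 3.4% of all genes, namely Col18a1, Col4a4, Col6a1 and Col11a1. Col6a1 had -1.09 (SE 0.46), and -0.41 without control 9. DESeq2 called 0 of the 43 collagens to which it gave an adjusted p (0.128% of all genes), and 4 of 44 had an unadjusted p under 0.05 (1.54% of all genes).

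Col4a4 had 5.07, 5.16 and 4.83 CPM in the knockout and 3.76, 3.74 and 4.37 CPM in the control sums, a log2 fold change of 0.37 (SE 0.12) that missed the threshold (edgeR adjusted p = 1.0). Col11a1 was at 29.8, 32.6 and 31.0 CPM against 27.9, 29.1 and 29.3 CPM. Col9a2 and Col17a1 also had sums that did not overlap, higher in knockouts for both. In all, the sums of the genotypes did not overlap for 5 of 38 collagens, where 8.29% of all genes tested did the same, and when the 6 libraries of each genotype were set side by side none of the 38 separated (0.127% of all genes). For the abundant chains the intervals in the sums were narrow. The log2 fold change of Col4a1 was 0.01 (95% interval -0.17 to 0.19) and that of Col4a2 was -0.02 (-0.17 to 0.12). That of Col9a3 was 0.00 (-0.28 to 0.27) and that of Col2a1 was 0.02 (-0.27 to 0.32). These sums join titled libraries that deviated from their group means in opposite directions, which narrows the spread between sums on which their p-values rest. For Col4a1 in controls the SD was 26.6 CPM over 6 libraries and 1.76 CPM over 3 sums. Within a part the intervals of Col4a1 and Col2a1 were wider. They ran from -0.269 to 0.999 and -1.16 to 1.38 in rostral libraries, and from -0.880 to 0.153 and -1.47 to 1.26 in caudal ones. In the sums, wider ones were found for Col25a1, at -0.68 (-1.45 to 0.09), and Col3a1, at -0.42 (-1.04 to 0.20). The same held for Col26a1, at -0.31 (-0.65 to 0.03), and Col23a1, at 0.06 (-0.76 to 0.88). For Col3a1 the sign turned when all libraries were fitted singly without control caudal 9 (0.10), and for Col25a1 the value was -0.30 without both libraries titled control 3.

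**Figure D4:**
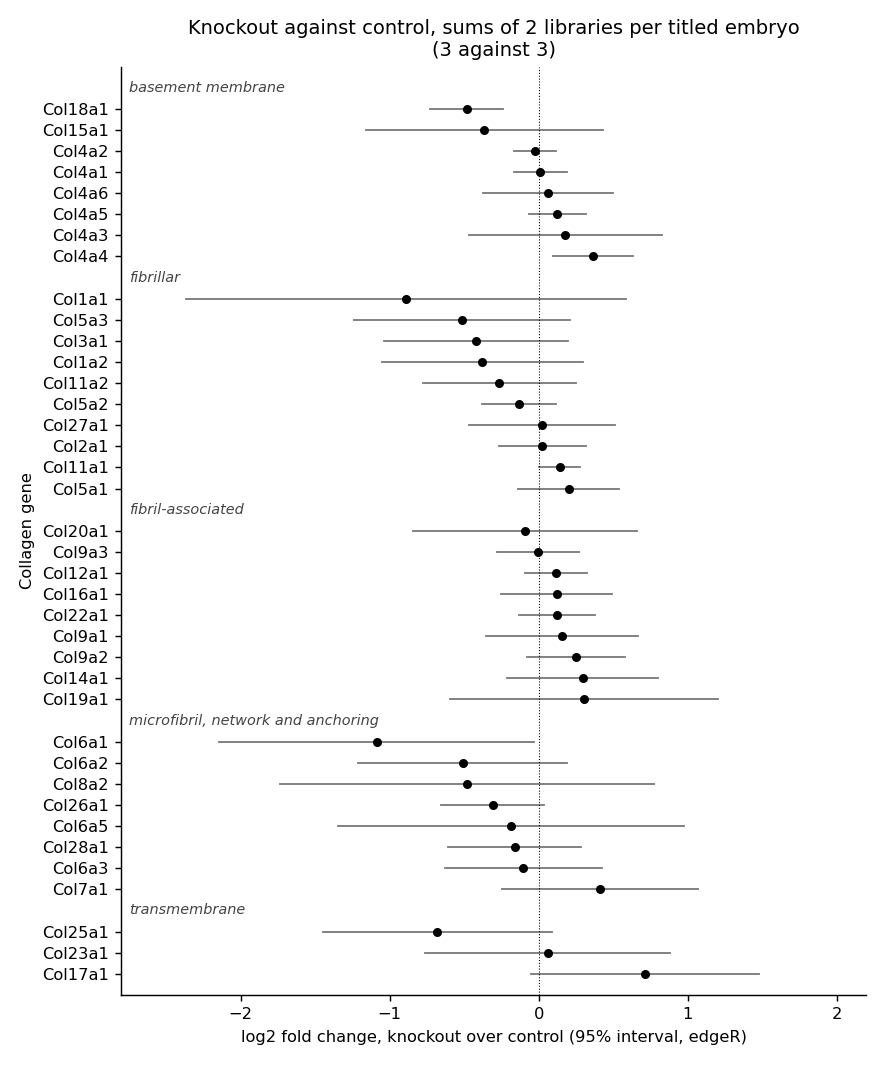
log2 fold change, knockout over control sums, of each collagen tested, with its 95% interval from edgeR; the vertical line marks no difference. The 4 intervals that leave out 0 belong to Col18a1, Col4a4, Col6a1 and Col11a1.

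By class, the median log2 fold change in the sums was 0.04 for 8 basement membrane chains (5 positive, 3 negative), -0.20 for 10 fibrillar chains (4 positive, 6 negative), 0.06 for 3 transmembrane chains (2 positive, 1 negative), 0.13 for 9 fibril-associated chains (7 positive, 2 negative) and -0.25 for 8 microfibril, network and anchoring chains (1 positive, 7 negative). The median over all 38 was 0.00, with 19 positive and 19 negative, and that of all genes tested was 0.00. The 6 members not tested were too low for edgeR's filter. Within the parts, where 34 were tested in each, medians were 0.09 in rostral and -0.25 in caudal libraries for fibrillar chains. They were 0.17 and -0.63 for microfibril, network and anchoring chains and 0.03 and -0.14 for basement membrane chains. Fibril-associated chains had 0.14 and 0.16, and transmembrane chains -0.33 and -0.32. Control caudal 9 was the highest library for Col1a1, Col1a2, Col3a1, Col6a1, Col6a2 and Col6a3.

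Within the libraries titled rostral, Col25a1 averaged 1.79 ± 0.277 CPM in knockouts and 3.28 ± 0.824 CPM in controls (SD, n = 3), a log2 fold change of -0.83 (SE 0.25, 95% interval -1.42 to -0.24). Its edgeR adjusted p was 1.0 and its unadjusted p was 0.0130. It was the 1 of 34 collagens with an unadjusted p under 0.05 (1.05% of all genes) and the 1 of 34 whose groups did not overlap (6.21% of all genes). Both high rostral controls of Col25a1, 1 and 3, were the libraries that held Xist with Ddx3y. Without them, with 1 rostral control left, the log2 fold change was -0.44. No rostral collagen had an edgeR adjusted p under 0.05 (0 of 34; 0% of all genes), and DESeq2 also called 0 of 43 (0.012% of all genes), with 1 of 43 at an unadjusted p under 0.05 (0.471% of all genes).

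In caudal libraries Col18a1 averaged 6.89 ± 1.39 CPM in knockouts and 11.8 ± 2.84 CPM in controls (SD, n = 3), a log2 fold change of -0.76 (SE 0.22, 95% interval -1.28 to -0.24). It missed the threshold with an edgeR adjusted p of 0.755 (unadjusted p = 0.00974). Summed endothelial markers ran from 136.3 to 204.9 CPM in these knockout and from 174.5 to 269.7 CPM in these control libraries, and their part in the level of Col18a1 was not tested. Col6a2 followed, at -1.32 (SE 0.51), with an unadjusted p of 0.0326, and was at -0.78 without control 9. These were the 2 of 34 collagens at an unadjusted p under 0.05, where 5.13% of all genes passed. Col4a2 and Col18a1 were the 2 of 34 whose caudal groups did not overlap, against 10.1% of all genes. After adjustment edgeR called 0 of 34 collagens (0.0472% of all genes), and DESeq2 called 0 of the 32 to which it gave an adjusted p (0.442% of all genes), with 5 of 44 at an unadjusted p under 0.05 (2.43% of all genes).

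Caudal and rostral libraries, as titled, were compared over all 12. Col15a1 was the leading member, with a log2 fold change, caudal over rostral, of -1.24 (SE 0.32, 95% interval -1.93 to -0.54), an edgeR unadjusted p of 0.00234 and an adjusted p of 0.422. DESeq2's Wald test called it (adjusted p = 0.0436) and no other of the 35 members to which it gave an adjusted p (0.444% of all genes). The groups averaged 2.41 ± 1.18 CPM in knockout rostral, 0.882 ± 0.292 CPM in knockout caudal, 2.97 ± 1.48 CPM in control rostral and 1.38 ± 0.207 CPM in control caudal libraries (SD, n = 3 each). Without control rostral 1 and 3, which held Xist with Ddx3y, and so with 1 rostral control left, the log2 fold change was -0.73. Col19a1, at -0.92 (SE 0.33), and Col11a2, at -0.45 (SE 0.20), were the others at an unadjusted p under 0.05, which made 3 of 36 collagens against 9.95% of all genes. edgeR called 0 of 36 collagens after adjustment (0% of all genes), and DESeq2 gave 3 of 44 at an unadjusted p under 0.05 (5.22% of all genes). The titled parts did not separate for any of the 36 members (0.361% of all genes).

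Since Nr2f1 went against the titles in the libraries named above, the collagens were also set beside it, as a description chosen after the values were seen and with no test. In the 5 libraries with the lowest Nr2f1, 50.7 to 97.1 CPM, Col2a1 ran from 8.08 to 12.6 CPM and Col5a1 from 5.38 to 6.37 CPM. In the other 7, where Nr2f1 ran from 205.4 to 373.1 CPM, Col2a1 ran from 21.4 to 35.7 CPM and Col5a1 from 7.66 to 14.3 CPM. These were the 2 of 36 collagens that did not overlap between the 5 and the 7 libraries, a share near the 4.3% found over all genes. Col9a1 ran the other way, at 1.81 to 3.65 CPM in the 5 libraries and 0.461 to 2.43 CPM in the 7. By title, the log2 fold change of caudal over rostral was 0.13 for Col2a1, 0.21 for Col5a1 and -0.79 for Col9a1.

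**Figure D5:**
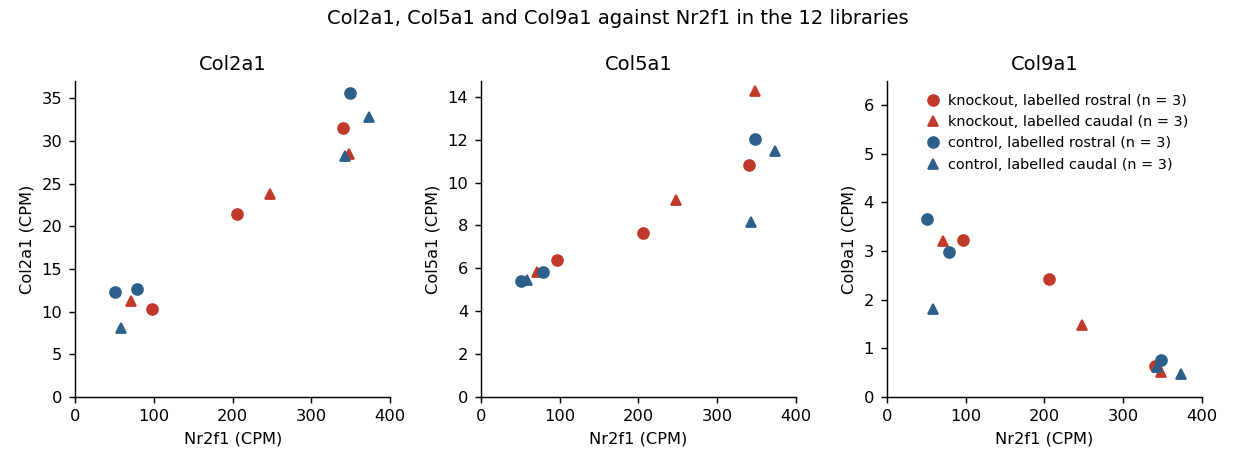
CPM of Col2a1, Col5a1 and Col9a1 against CPM of Nr2f1 in the 12 libraries, with colour for genotype and shape for titled part. Each point is 1 library. The libraries titled knockout rostral 2 and control rostral 3 lie at high Nr2f1, and those titled knockout caudal 2 and control caudal 3 at low Nr2f1.

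The difference between the genotype effects of the 2 parts was tested as an interaction, coded as the caudal minus the rostral log2 fold change of knockout over control. Col1a2 had -1.47 (SE 0.64) and Col4a2 -0.78 (SE 0.35), the 2 of 36 collagens at an unadjusted p under 0.05 (2.74% of all genes), and both had an edgeR adjusted p of 0.998. Col4a1 had -0.72 (SE 0.38), and -0.17 without both libraries titled knockout 7. For Col1a2 the value rested on control caudal 9: without that library it was -0.62. For Col4a2 it was -0.63 without it, and -0.30 without both libraries titled knockout 7. After adjustment edgeR called 0 of 36 (0% of all genes) and DESeq2 0 of 44 (0% of all genes), with 3 of 44 at an unadjusted p under 0.05 (1.63% of all genes). In the same fit the interaction was negative for 13 of the 14 endothelial markers (median log2 -0.64) and for 12 of the 12 mural markers (median log2 -0.82), and their part in the values of Col4a1 and Col4a2 was not tested.

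Genes that make, bind or cut collagens were read from 4 lists. None of their members had an edgeR adjusted p under 0.05 in any of the 5 comparisons. Of all genes tested, 0.0317% were called in the sums, 0% in rostral and 0.0472% in caudal libraries. The share was 0% in caudal against rostral and 0% in the interaction. Of 32 biosynthesis genes, all tested in the sums, 19 had positive and 13 negative log2 fold changes with a median of 0.02. The smallest p values there belonged to P4ha2, a subunit of the enzyme that hydroxylates proline in collagen, at -0.45 (SE 0.17), and P4ha3, a subunit of the same kind, at 0.34 (SE 0.13). Of the 12 receptors, 11 were tested with a median of 0.01. Itga11 and Ddr2, which bind fibrillar collagens, had 0.30 (SE 0.27) and 0.13 (SE 0.13). The 15 basement membrane partners had a median of 0.00, and the laminin chain gene Lama2 had 0.29 (SE 0.12) and the nidogen gene Nid2 -0.14 (SE 0.09). Of 14 genes for collagen-cutting proteases and their inhibitors, 12 were tested with a median of -0.01. The inhibitor Timp4 had -0.48 (SE 0.28) and the gelatinase Mmp9 0.42 (SE 0.29). Within the parts, the partners had a median of 0.12 in rostral (13 positive, 2 negative) and -0.22 in caudal libraries (3 positive, 11 negative). The proteases and inhibitors had 0.16 (10 positive, 0 negative) and -0.10 (2 positive, 7 negative). Biosynthesis genes had medians of 0.05 and -0.02, and receptors of 0.01 and -0.003.

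Between the titled parts, Hspg2, the gene of the basement membrane proteoglycan perlecan, had a log2 fold change of 0.47 (SE 0.13) in caudal over rostral libraries with an edgeR adjusted p of 0.430, and the laminin chain gene Lama3 had -0.54 (SE 0.21). The collagen receptors Adgrg1, which binds type III collagen at the pial surface, and Itgb1 had 0.28 (SE 0.11) and 0.14 (SE 0.05), each with an adjusted p of 0.449.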

How the data were processed

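The submitters' processing notes name STAR 2.7.8a, featureCounts 2.0.3 and the build GRCm39. The headers of the deposited files show gene models from GENCODE release 28 (mouse) and reverse-stranded counting, with each multi-mapping or multi-overlapping fragment split into fractions. The values the authors deposited are thus expected counts per gene without normalization, and 22.7% of the 528 collagen values are not whole. Such values hold split fragments and are uncertain to that extent, and the counts do not show which kind of split occurred. Counts were rounded to whole numbers for edgeR 4.0.16 in R 4.3.3 (filterByExpr, TMM scaling, robust quasi-likelihood fits, Benjamini-Hochberg adjusted p under 0.05 over all genes tested) and for DESeq2 1.42.0. Levels are CPM by the library total, and levels per kilobase divide by the exon length in the files. Ranks, shares and ratios between genes per kilobase depend on those lengths.

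The comparisons were knockout against control in sums of both libraries of a titled embryo, in rostral and in caudal libraries (3 against 3 each), caudal against rostral, and their interaction (12 libraries in 4 groups). No library was left out of these. Replicates differed by far more than sampling noise. The pairing by title was checked over 1000 autosomal genes. The 6 correlations between deviations of same-titled libraries ran from -0.712 to -0.263, with 0 above 0.1, against -0.239 to 0.744 for the 12 pairs of other embryos, with 9 above 0.1. The titled embryo was thus used as a block only as an alternative. Deviations sum to 0 within each group of 3 libraries. The values for pairs of other embryos are therefore tied to those of same-titled libraries and are not independent of them. Tests were checked on simulated counts.

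Members, classes and lists were chosen with earlier results of these data known. Within each class (fibrillar, basement membrane, transmembrane, other) the 3 genes with the highest level per kilobase and the 2 with the smallest p in the sums at a mean of at least 1 CPM are given in every library, and in each pathway list the 2 with the smallest p. Promoter windows are RefSeq's on GRCm38.p6; no coordinate was converted. Alternatives were DESeq2's size factors and Wald test, no filter, a threshold of 0.10 and each titled embryo left out. Further alternatives were blocks by titled embryo or by the number before it in the titles, other sets of libraries and TMM-scaled library sizes. Those without control caudal 9 were chosen after seeing the data.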

Additional observations from a re-analysis of the deposited data

Results flagged for a closer look

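Of 58 sets of 6 libraries of 1 genotype that were checked, 5 held a library set apart from the others by Dixon's criterion, and chance alone gives about 1 in 20. In 4 of them the library was control caudal 9, the highest of the 6 controls. Col3a1 was at 18.1 CPM there against 7.75 CPM in the next control library, Col1a2 at 15.6 against 5.40 CPM, Col1a1 at 8.71 against 2.42 CPM and Col6a3 at 5.09 against 2.7 CPM. The other was Col19a1, a fibril-associated chain, at 2.91 CPM in control rostral 3 against 1.49 CPM in the next control library. For Col19a1, 66.7% of the 12 deposited counts were not whole numbers. What sets these libraries apart was not tested.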

How the results depend on the processing

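Of 35 tested results recomputed, 23 kept their direction and their side of the threshold under every alternative run, among them 20 of the 30 values of single genes. The 6 class ratios are log2 ratios of mean class CPM over the 6 libraries of each genotype, knockout over control. They have no test and moved by less than 1 SD, but 3 of them, all near 0, changed sign. Without the control caudal 9 library these log2 ratios were 0.0489 for basement membrane chains (otherwise -0.0414), 0.0732 for fibrillar chains (-0.0702) and 0.0526 for all collagens (-0.0368). The number of collagens called in the sums went from 0 to 1 with no filter on low counts, when Col18a1 passed (edgeR adjusted p = 0.0259, against 0.0996 with DESeq2 and up to 1.0 over its alternatives). In caudal against rostral it went from 0 to 1 with the DESeq2 Wald test, when Col15a1 passed (adjusted p = 0.0436). With the titled embryo as a replicate block, 0 collagens were called in caudal against rostral and 0 in the interaction, as without it. Without the block edgeR called 0% of all genes in both, so there was no call to lose. Whether pairing matters cannot be read from this. Without control caudal 9 the sign turned for Col3a1 (0.10) and Col4a2 (0.0705) in knockout against control over single libraries, and for Col2a1 in caudal against rostral (-0.0414). Leaving out 1 titled embryo at a time turned the sign of values near 0: in the sums Col23a1 ran from -0.25 to 0.37, Col2a1 from -0.11 to 0.15, Col4a1 from -0.0696 to 0.0934, Col4a2 from -0.0745 to 0.0357 and Col9a3 from -0.11 to 0.0636, and in caudal against rostral Col2a1 ran from -0.16 to 0.67 and Col5a1 from -0.0335 to 0.55. The sums without control rostral 1 and 3 were not run, since 1 control would remain. Members below 1 CPM rest on few counts.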
